A study of Mus musculus with 12 samples.

Results

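The genes described here are 43 mouse genes whose products build ribosomes, out of the 49671 genes counted in each library of an RNA-seq experiment on NIH 3T3 cells. They are a fixed list of symbols, each of which matched 1 Ensembl identifier. The rule uses no measured value, but the list was drawn up with earlier results of these data known. Ribosomes are assembled mainly in the nucleolus. There RNA polymerase I transcribes a long precursor rRNA, small nucleolar ribonucleoproteins (snoRNPs) guide its methylation and pseudouridylation, and a large set of further factors fold, cleave and export the pre-40S and pre-60S particles. Growing fibroblasts make ribosomes at a high rate, and serum growth factors are a classical stimulus of this work. By role the list holds 5 genes of RNA polymerase I transcription, 3 of the box C/D snoRNP core, which carries rRNA 2′-O-methylation, 4 of the box H/ACA snoRNP core, which carries pseudouridylation, 5 multifunctional nucleolar proteins, 13 genes of the small subunit processome and pre-40S particle, and 13 of pre-60S assembly.

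NIH 3T3 is an immortalized line of mouse embryo fibroblasts, so all libraries came from 1 cell line. Cells were transfected with a negative control siRNA (here control cells) or with an siRNA against Lap2, the protein family that the Tmpo gene encodes and that binds lamins and chromatin at the nuclear envelope and in the nucleoplasm. Each was then either kept in medium with 0.3% fetal bovine serum (FBS), here called serum-starved, or stimulated with 15% FBS for 45 min. The 4 groups held 3 libraries each, and the experiment asked how Lap2 depletion alters gene expression at rest and upon serum stimulation. The siRNA was directed against Lap2 as a whole, not against 1 isoform, and the labels do not say whether the replicates came from separate cultures, so p-values measure only the spread between these libraries. Ribosomal RNA was removed before sequencing, and the rRNA precursor itself was not measured. Values below are counts of reads per gene, scaled to the same effective library size and named normalized counts, and the values of replicates 1, 2 and 3 are given in that order. Fold changes are on a log2 scale (log2FC) with the standard error (SE) of the fit, and a gene was called changed with an adjusted p under 0.05 in the quasi-likelihood test of edgeR, adjusted by Benjamini-Hochberg over the 18668 genes tested.

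Total counts ran from 18026298 to 26265253 per library, and mitochondrial transcripts took 2.69% to 3.95% of them. The 9 fibroblast markers examined, among them Col1a1 and Vim, had raw counts between 506 and 250406 in every library. The 10 markers of blood, epithelial, endothelial, muscle, fat and glial cells had between 0 and 54, with Myog at 0 throughout. Tmpo had 2775, 2805 and 2885 normalized counts in serum-starved and 3264, 3243 and 3019 in serum-stimulated control cells. In Lap2-depleted cells it had 982, 1175 and 1093 in 0.3% FBS and 767, 745 and 607 in 15% FBS. The libraries with each siRNA did not overlap, and the Tmpo log2FC was -1.38 ± 0.08 (SE) in 0.3% FBS and -2.17 ± 0.08 in 15% FBS.

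Of the 43 genes, 42 were tested. Their raw counts lay between 160 (Nop16) and 27059 (Npm1) in every library, so that the filter on low counts, more than 1 read in at least 3 libraries, took no part in their selection. Wdr74, a pre-60S factor, was counted at 0 to 3 reads per library and was not tested. Per kilobase of annotated exon, the 42 genes spanned levels from 40.4 normalized counts for Wdr12 to 8155 for Npm1 in serum-starved control cells, and Ncl followed Npm1 with 1098.

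The level of the whole list, taken as the mean log2 CPM (counts relative to library sizes scaled by TMM, edgeR's normalization, on a log2 scale) over the 42 genes, was lowest in serum-starved control cells at 5.44 ± 0.05 (SD, n = 3). It was 5.68 ± 0.01 in serum-stimulated control cells, 5.99 ± 0.02 in serum-starved Lap2-depleted cells and 5.97 ± 0.09 in serum-stimulated Lap2-depleted cells. All 6 Lap2 siRNA libraries lay above all 6 control siRNA libraries, and the groups of Lap2-depleted cells overlapped each other. Replicate 3 of the serum-stimulated Lap2-depleted cells stood highest, at 6.08 against 5.91 and 5.93 for replicates 1 and 2. As a share of raw counts the 42 genes took 0.361% and 0.352% in control cells without and with serum, and 0.514% and 0.457% in Lap2-depleted cells, so the serum rise in control cells was present after TMM scaling and not in the share of raw counts. In bulk RNA, more RNA per cell and a larger share of cells with high levels cannot be told apart.

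**Figure D1:**
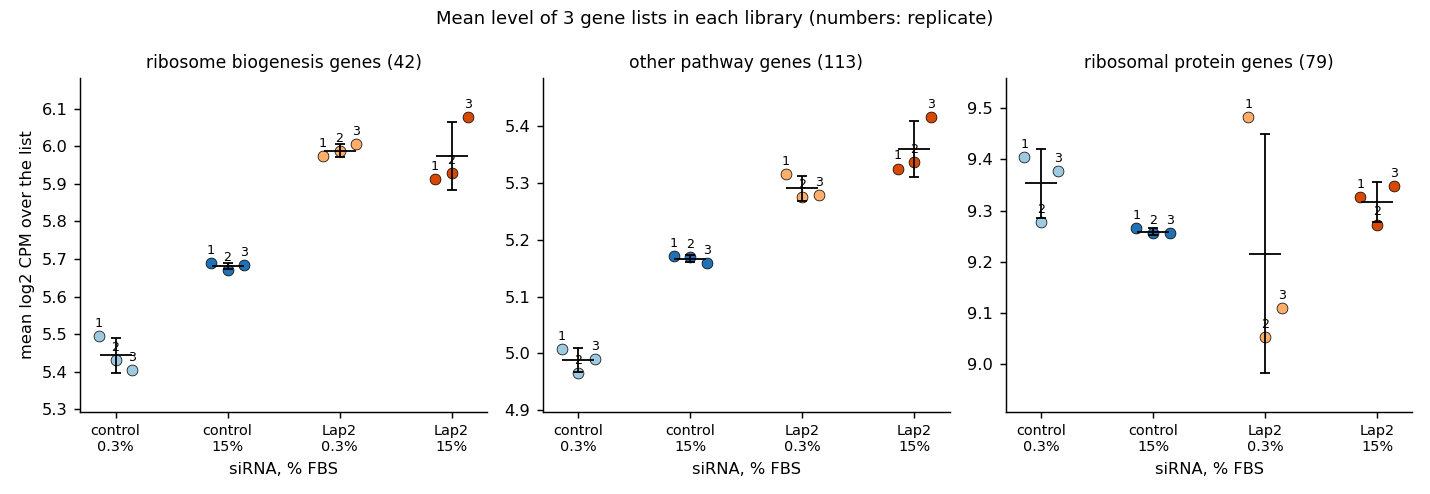
Mean log2 CPM over the 42 ribosome biogenesis genes, 113 other genes of the pathway and 79 ribosomal protein genes in each library, numbered by replicate; bars give the group mean and SD. For the 42 genes the Lap2 siRNA libraries lie between 5.91 and 6.08 and the control siRNA libraries between 5.40 and 5.69, while in the ribosomal protein panel replicate 1 of the serum-starved Lap2-depleted cells lies apart from replicates 2 and 3.

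Among the 5 comparisons, the largest median change of these genes was that with Lap2 siRNA in serum-starved cells. There 36 of the 42 genes were higher than with control siRNA, 1 was lower and 5 did not pass the test, with a median log2FC of 0.60. Over all genes tested 17.8% were called higher and 18.6% lower in this comparison, with a median of 0.01. For each of the 36 genes the 3 Lap2 siRNA libraries lay above the 3 control siRNA libraries. These genes were already called by the test, and the share of all genes that separate this way was not counted. Of the 36 calls, 34 held under all 20 alternative settings examined, with Rrp9 and Bysl as the exceptions. The settings were other normalizations, filters and tests, the replicate number as a block, and each library left out. Leaving out single libraries kept the number of higher genes between 34 and 37.

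Genes of every role were among them. The box C/D core was higher in 3 of 3 genes, led by Nop56 (log2FC 1.06), and the box H/ACA core in 4 of 4, led by Nhp2 (0.78). Of the multifunctional nucleolar proteins 4 of 5 were higher, with Ddx21 leading at 1.07. The small subunit processome and pre-40S genes were higher in 11 of 13, led by Rrp12 at 1.17, and the pre-60S genes in 11 of 12, led by Nop2 at 0.98. RNA polymerase I transcription was the mixed group, with 3 of 5 genes higher, led by Polr1b at 0.77, and 1 lower.

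Rrp12, a HEAT-repeat protein needed for nuclear export of pre-ribosomal particles (chr19:41862852-41896153, minus strand, in mm10 like the other gene positions), had 395, 342 and 339 normalized counts in serum-starved control cells and 746, 872 and 803 in serum-starved Lap2-depleted cells. The groups did not overlap, and the difference was 2.25-fold (log2FC 1.17 ± 0.09, edgeR adjusted p = 3.2e-12). Ddx21, a DEAD-box helicase that acts both in rDNA transcription and in rRNA processing (chr10:62580248-62602298, minus strand), had 1706, 1569 and 1440 with control siRNA against 3121, 3463 and 3319 with Lap2 siRNA. These values were also separate, with a 2.1-fold difference (log2FC 1.07 ± 0.07, edgeR adjusted p = 8.3e-14).

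Nop56, a scaffold protein of box C/D snoRNPs (chr2:130274430-130279313, plus strand), had 1441, 1238 and 1313 normalized counts in serum-starved control cells and 2806, 2783 and 2711 in Lap2-depleted cells. Its level was 2.08-fold higher with no overlap (log2FC 1.06 ± 0.07, edgeR adjusted p = 3.9e-14). The rRNA cytosine methyltransferase gene Nop2 (chr6:125131909-125144753, plus strand) had 915, 826 and 749 with control siRNA against 1615, 1680 and 1605 with Lap2 siRNA. The Lap2 siRNA libraries were again all higher (log2FC 0.98 ± 0.08, edgeR adjusted p = 2.4e-12). Other strongly raised genes were Gnl3 (nucleostemin, log2FC 0.91 ± 0.08), Heatr1 (an early small subunit processome protein, 0.85 ± 0.09), Nolc1 (a snoRNP chaperone, 0.84 ± 0.08) and the processome gene Utp15 (0.82 ± 0.10).

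Ubtf, which encodes the HMG-box factor that holds active rDNA open for RNA polymerase I (chr11:102304560-102319742, minus strand), went the other way. It had 4357, 4202 and 3989 normalized counts in serum-starved control cells and 3211, 3359 and 3246 in Lap2-depleted cells. All Lap2 siRNA libraries were lower, and Ubtf fell by 0.35 ± 0.06 on the log2 scale (edgeR adjusted p = 1.1e-05). In contrast, the catalytic core subunits of RNA polymerase I were higher in the same cells. Polr1a (chr6:71909053-71984935, plus strand) had 1604, 1496 and 1348 with control siRNA against 2208, 2486 and 2573 with Lap2 siRNA (log2FC 0.71 ± 0.07), and Polr1b (chr2:129100995-129126594, plus strand) had 482, 385 and 420 against 726, 741 and 717 (0.77 ± 0.09). The polymerase initiation factor gene Rrn3 (chr16:13780699-13814840, plus strand) had 1183, 1235 and 1190 against 1540, 1680 and 1777 (0.47 ± 0.07). For all 3 genes the Lap2 siRNA libraries lay above the control siRNA libraries.

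The 5 genes that did not pass the test in 0.3% FBS were Polr1c, a subunit that RNA polymerases I and III share (log2FC -0.04 ± 0.07), Npm1 (nucleophosmin, 0.03 ± 0.07), Nop14 (0.18 ± 0.08), Nop16 (-0.00 ± 0.12) and Pno1 (-0.15 ± 0.09). Npm1 had 20187, 22671 and 22343 normalized counts with control siRNA against 24845, 20123 and 21567 with Lap2 siRNA, so that the groups overlapped.

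**Figure D2:**
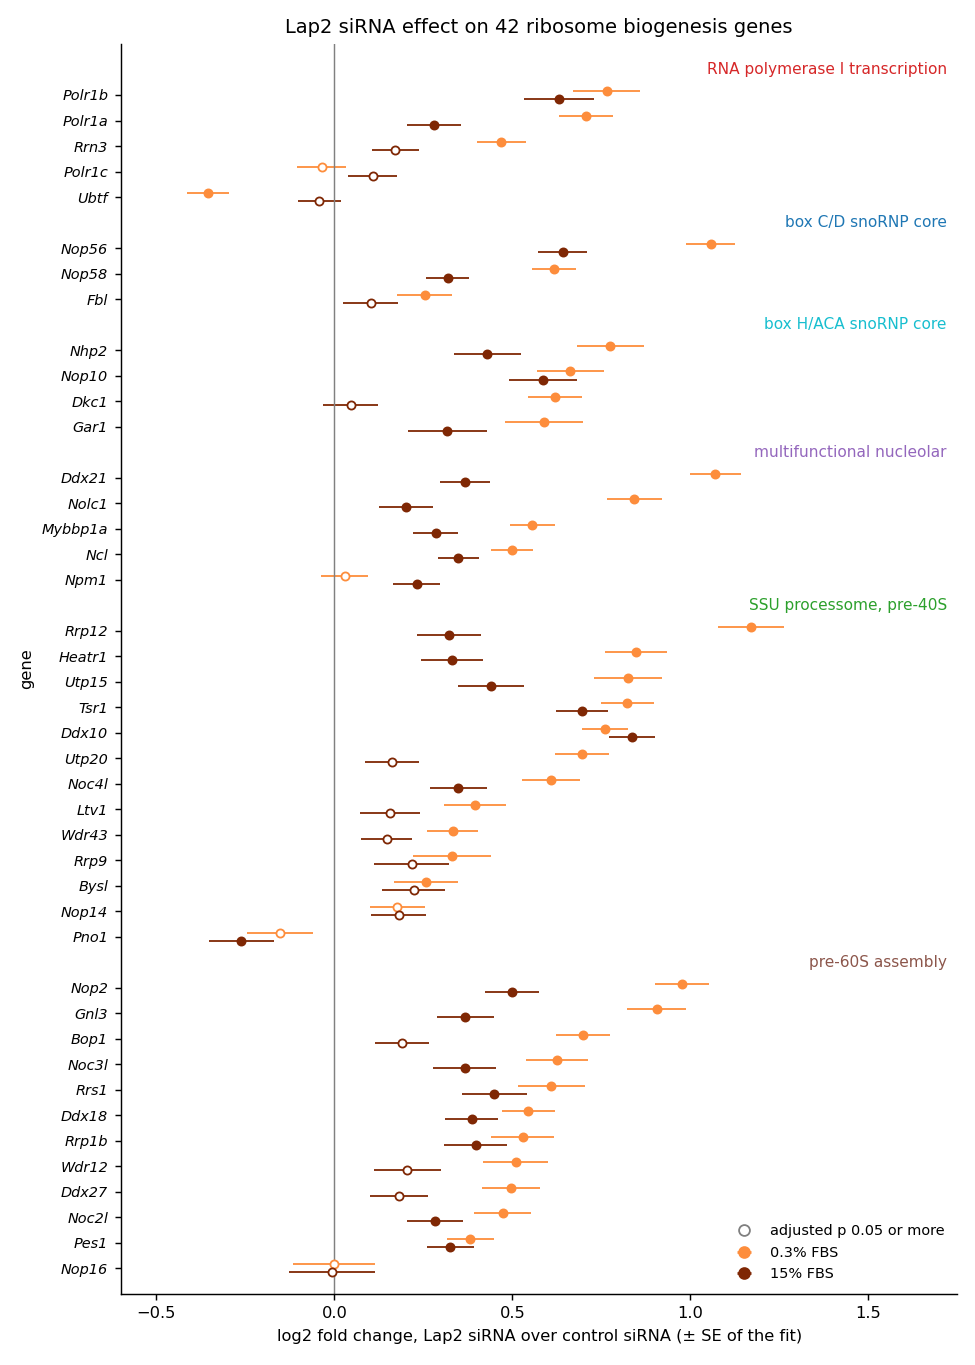
Log2 fold change of Lap2 siRNA over control siRNA for the 42 tested genes, grouped by role, in 0.3% FBS (light) and 15% FBS (dark); bars give the SE of the fit and open points did not pass the test. In 0.3% FBS 36 points are called above 0 and Ubtf below it, and in 15% FBS 26 are called above 0 and Pno1 below it.

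In serum-stimulated cells the same siRNA comparison gave smaller differences. Of the 42 genes 26 were higher in Lap2-depleted cells, 1 was lower and 15 did not pass, with a median log2FC of 0.30, where 11.4% of all genes tested were called higher and 12.1% lower with a median of 0.02. Of the 26, 25 were also called higher in 0.3% FBS and the exception was Npm1 (0.23 ± 0.07). A set of 20 of the 26 calls held under all 20 alternatives, and the others were those of Polr1a, Gar1, Nolc1, Rrp12, Heatr1 and Noc2l. Without replicate 3 of the serum-stimulated Lap2-depleted cells, the library with the highest levels, 21 genes were higher and the median was 0.24.

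By role, 2 of 5 RNA polymerase I genes, 2 of 3 box C/D genes, 3 of 4 box H/ACA genes and 5 of 5 multifunctional nucleolar genes were higher with Lap2 siRNA in 15% FBS. The small subunit processome and pre-40S group had 6 of 13 higher and the pre-60S group 8 of 12. The lower gene was Pno1, a KH-domain factor of pre-40S maturation, with 635, 576 and 597 normalized counts with control siRNA against 530, 441 and 537 with Lap2 siRNA. Its groups did not overlap (log2FC -0.26 ± 0.09, edgeR adjusted p = 0.036), but the call was lost without control siRNA replicate 1 or 3 or Lap2 siRNA replicate 2 of the serum-stimulated cells, and with scaling to total counts.

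Ddx10, a DEAD-box helicase of the small subunit processome (chr9:53098635-53248053, minus strand), showed the largest difference in 15% FBS. It had 1783, 1688 and 1731 normalized counts with control siRNA against 3073, 3103 and 3112 with Lap2 siRNA, a 1.78-fold difference (log2FC 0.84 ± 0.06, edgeR adjusted p = 7.2e-12). In 0.3% FBS it had 1509, 1690 and 1663 against 2621, 2725 and 2895 (0.76 ± 0.06). Tsr1, a GTPase-like protein of late pre-40S particles (chr11:74898071-74909342, plus strand), had 1357, 1314 and 1372 with control siRNA against 2076, 2022 and 2442 with Lap2 siRNA in 15% FBS (0.70 ± 0.07), and 1030, 1004 and 1088 against 1700, 1866 and 1959 in 0.3% FBS (0.82 ± 0.08). For both genes all Lap2 siRNA libraries exceeded all control siRNA libraries, with and without serum.

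Nop56 kept a clear difference in 15% FBS, with 1559, 1622 and 1717 normalized counts against 2529, 2403 and 2701 (0.64 ± 0.07), and Polr1b had 320, 336 and 335 against 484, 467 and 582 (0.63 ± 0.10). Dkc1, the rRNA pseudouridine synthase (chrX:75095854-75109777, plus strand), behaved otherwise. It had 718, 667 and 732 with control siRNA against 1096, 1066 and 1089 with Lap2 siRNA in 0.3% FBS (0.62 ± 0.08). In 15% FBS the values were 808, 760 and 843 against 788, 791 and 906, and these overlapped (0.05 ± 0.08, edgeR adjusted p = 0.76). Across the 42 genes the log2FC in 0.3% FBS and that in 15% FBS, which share no library, had a Pearson r of 0.68 and a Spearman rho of 0.68, beside 0.29 and 0.39 over all genes tested. All genes tested, unlike the 42, include ones with few reads and larger SEs. These are correlations across genes, which are not independent replicates.

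**Figure D3:**
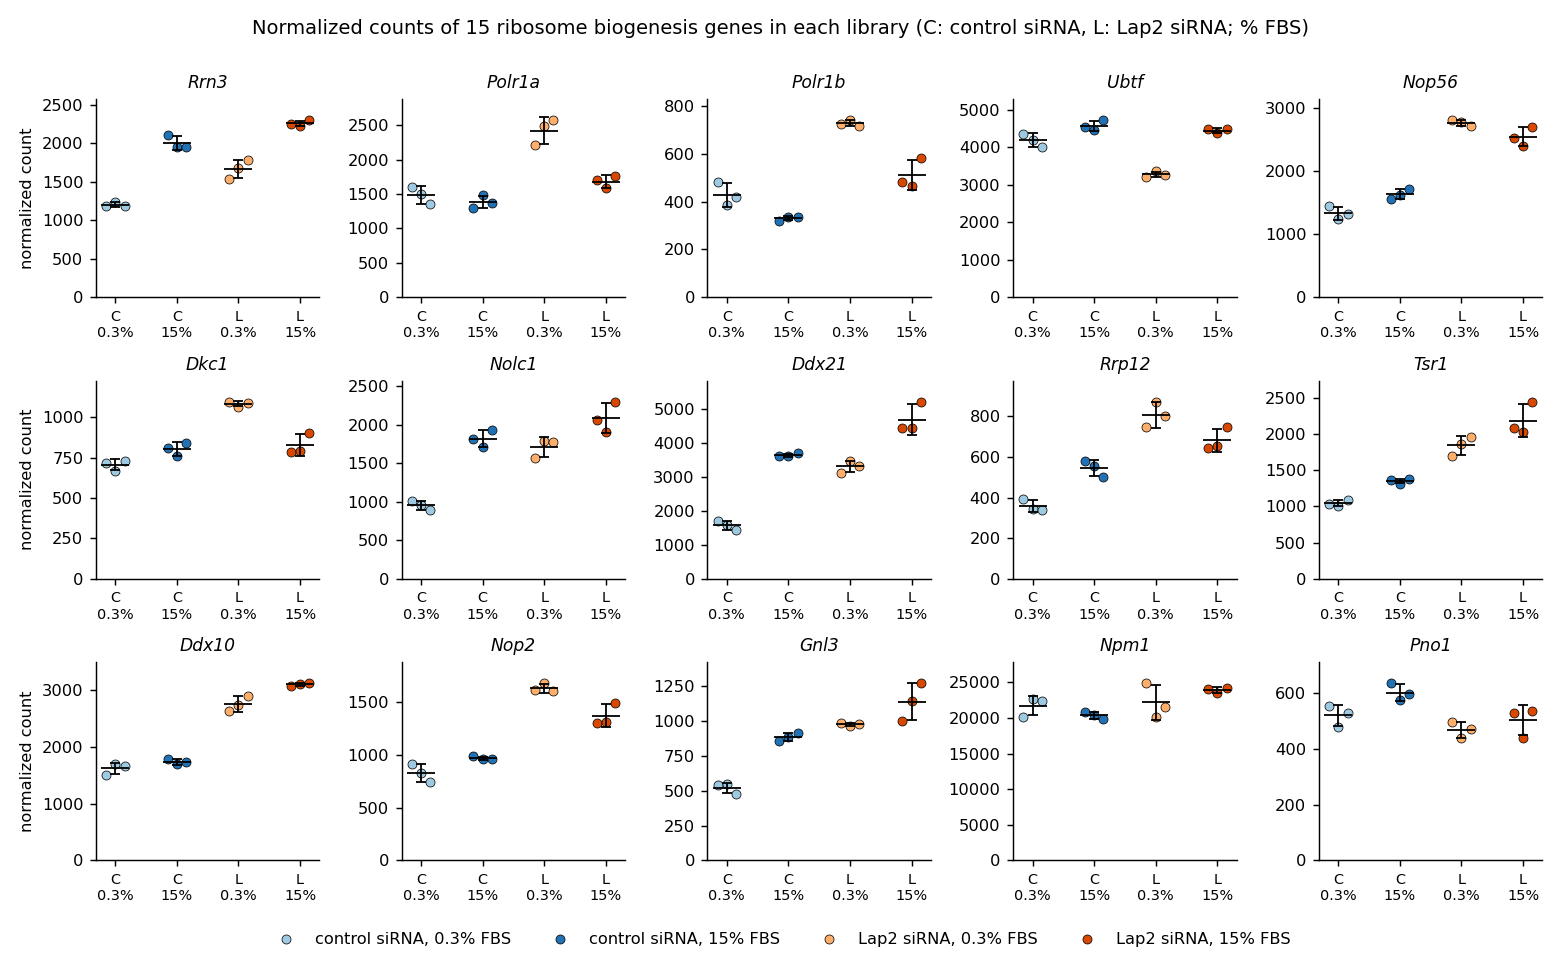
Normalized counts (axes from 0) of 15 of the genes in each library by siRNA and serum, with the group mean and SD. Nop56, Nop2, Tsr1 and Ddx10 are separated by siRNA in both serum conditions, Ubtf is lowest in serum-starved Lap2-depleted cells, and the Npm1 libraries overlap in 0.3% FBS.

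Serum stimulation for 45 min of control cells raised 21 of the 42 genes and lowered 2, Polr1b and Polr1c, with a median log2FC of 0.21, but under scaling to total counts, which moved the median of all genes by -0.21, 9 were higher and 8 lower and the median was 0.01. Over all genes tested 15.6% were called higher and 13.9% lower, with a median of -0.01. The 9 genes called higher under all 20 alternatives were Rrn3, Nop58, Nolc1, Ddx21, Rrp12, Utp15, Ltv1, Rrs1 and Gnl3, and Polr1c was called lower under all of them. Polr1b lost its call without replicate 1 of the serum-starved control cells, which left 1 lower gene. By role, 9 of 13 small subunit processome and pre-40S genes, 5 of 12 pre-60S genes, 3 of 5 multifunctional nucleolar genes, 2 of 3 box C/D genes, 1 of 4 box H/ACA genes and 1 of 5 RNA polymerase I genes were higher.

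Ddx21 responded most. From the 1706, 1569 and 1440 normalized counts of serum-starved cells it reached 3594, 3609 and 3684 after serum, a 2.31-fold rise without overlap (log2FC 1.21 ± 0.07, edgeR adjusted p = 1.8e-15). Nolc1 (chr19:46075863-46085528, plus strand) had 1009, 960 and 893 before and 1818, 1709 and 1930 after serum (0.93 ± 0.08, edgeR adjusted p = 7.8e-12). Gnl3, a nucleolar GTP-binding protein (chr14:31012434-31019089, minus strand), had 540, 545 and 479 before and 854, 885 and 913 after (0.76 ± 0.08), and Rrn3 rose from the values above to 2107, 1948 and 1955 (0.74 ± 0.07). The serum-stimulated libraries of these genes were all above the serum-starved ones. Myc, a transcription factor known for control of ribosome biogenesis genes, had a mean of 362 ± 8.41 normalized counts before and 4847 ± 228 after serum (SD, n = 3), and 605 ± 30.2 and 4619 ± 50.4 in Lap2-depleted cells.

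In Lap2-depleted cells serum raised 12 of the 42 genes and lowered 12, with a median log2FC of -0.05, and under total-count scaling 3 were higher and 25 lower with a median of -0.28. Leaving out single libraries took the median from -0.09 to 0.0038, and it was above 0 without replicate 2 of the serum-stimulated Lap2-depleted cells. It moved by over 1.5 times without any of the 3 libraries of that group, and without replicate 1 or 2 of the serum-starved Lap2-depleted cells. All genes tested gave 18.3% higher and 14.9% lower calls, with a median of 0.00. These counts leaned on single libraries of the serum-stimulated Lap2-depleted cells. Without replicate 1 only 4 genes were lower, without replicate 2 there were 7, and without replicate 3 only 6 were higher. The calls that held under all 20 alternatives were those of Rrn3, Ubtf and Ddx21, which were higher, and of Polr1a, Polr1b, Dkc1 and Utp20, which were lower.

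Polr1a had 2208, 2486 and 2573 normalized counts in serum-starved Lap2-depleted cells and 1703, 1581 and 1758 after serum, and it fell by 0.53 ± 0.07 on the log2 scale (edgeR adjusted p = 7.2e-07). In control cells it had 1604, 1496 and 1348 before and 1299, 1482 and 1374 after serum, which overlapped (log2FC -0.10 ± 0.08). Polr1b fell by 0.51 ± 0.09 in Lap2-depleted cells, with 484, 467 and 582 after serum, and by 0.37 ± 0.10 in control cells. Ubtf had 4485, 4363 and 4473 after serum in Lap2-depleted cells, all above its serum-starved values (0.44 ± 0.06, edgeR adjusted p = 3.4e-07), while in control cells serum gave 4543, 4459 and 4716 (0.13 ± 0.06, edgeR adjusted p = 0.11). Ddx21 rose to 4418, 4422 and 5199, again without overlap (0.50 ± 0.07). After serum the Ubtf values with either siRNA overlapped, and the log2FC between them was -0.04 ± 0.06.

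Called by this threshold, 10 genes were higher after serum with both siRNAs, 7 were higher with control siRNA with no call in Lap2-depleted cells, and 4, Rrp12, Heatr1, Nop2 and Bop1, were higher with control siRNA and lower with Lap2 siRNA. For these 4 the fall in Lap2-depleted cells was small (log2FC -0.23 to -0.25) and each lost its call in Lap2-depleted cells without replicate 1 of the serum-stimulated ones. In control cells the calls of Heatr1 and Nop2 were also lost when single control libraries were left out, and those of Heatr1, Nop2 and Bop1 with total-count and upper-quartile scaling. Of the 10 genes higher with both siRNAs, 8 lost the Lap2 siRNA call under total-count scaling, and Rrn3 and Ddx21 did not. A further 7 genes had no call with control siRNA and were lower in Lap2-depleted cells. The shares of all genes tested with these joint patterns were not counted, so the patterns cannot be called particular to this list. Over the 42 genes the serum log2FC with either siRNA, again from separate libraries, had a Pearson r of 0.67 and a Spearman rho of 0.63. Over all genes tested, which include ones with few reads and larger SEs, these were 0.39 and 0.38.

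**Figure D4:**
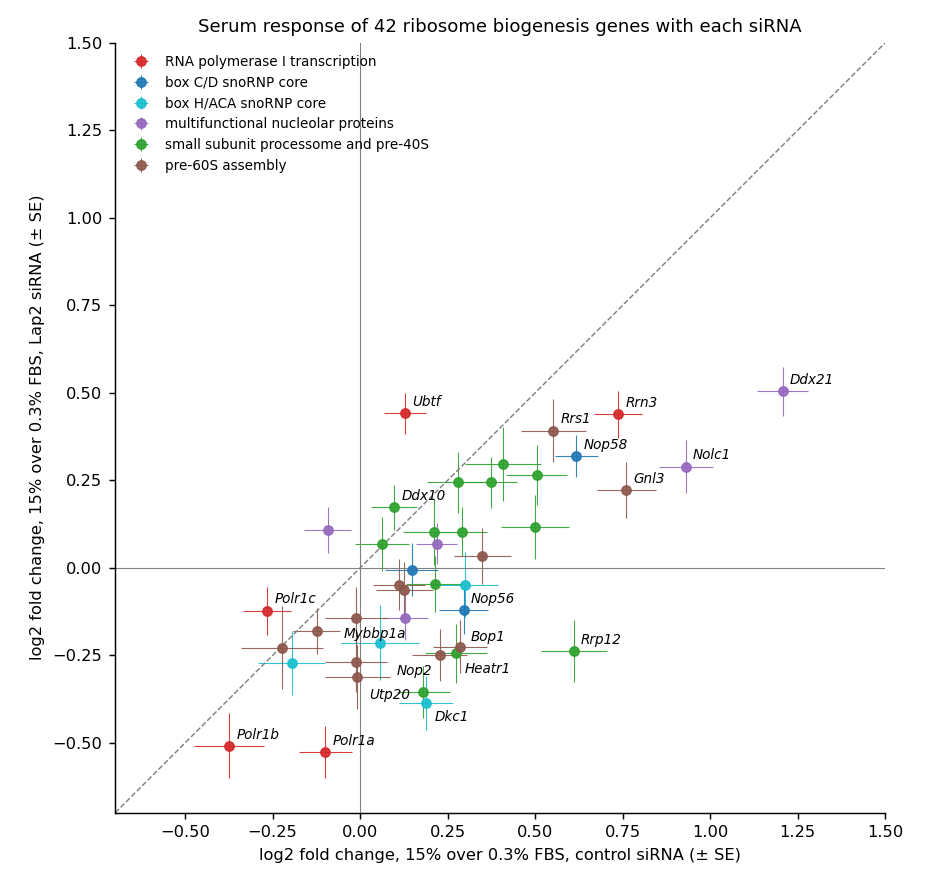
Log2 fold change of 15% over 0.3% FBS with control siRNA (horizontal) and Lap2 siRNA (vertical) for the 42 genes, coloured by role, with the SE of the fit; the dashed line marks equal responses. Most points, 37 of 42, lie below the line, and Ubtf lies above it. Of all 18668 genes tested, which are not drawn, 9706 had an interaction above 0. Zero on each axis moves with the scaling, as total-count scaling shifted the median of all genes by -0.21 and -0.23.

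Whether the serum response itself differed between the siRNAs was tested with the interaction, the log2FC of serum in Lap2-depleted cells minus that in control cells. It was below 0 for 37 of the 42 genes, with a median of -0.25, and 14 genes passed the test below 0 while 1, Ubtf, passed above it. Over all genes tested 6.51% were called below 0 and 7.09% above, with a median of 0.02. Called or not, 9706 of these 18668 genes had an interaction above 0. Of the calls 11 below 0 and that of Ubtf held under all 19 alternatives. The 3 that did not were Rrn3, Nop58 and Mybbp1a, whose calls were all lost without replicate 1 of the serum-stimulated Lap2-depleted cells. The interaction compares the same 12 libraries in another way, so a smaller serum response and a smaller siRNA difference after serum are 1 measurement. Tmpo itself, with Lap2 siRNA, was 0.384-fold of its control level in 0.3% FBS and 0.222-fold in 15% FBS, and the part of this in the interactions was not tested.

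Rrp12 had the interaction of largest size, -0.85 ± 0.13 (edgeR adjusted p = 1.2e-05). Serum took it to 580, 555 and 504 normalized counts with control siRNA (log2FC 0.61 ± 0.09), and from 746, 872 and 803 to 645, 655 and 749 with Lap2 siRNA, where the libraries overlapped by replicate 1 and replicate 3 (-0.24 ± 0.09). For Ddx21 the interaction was -0.70 ± 0.10 (edgeR adjusted p = 4.5e-06), as serum raised it 2.31-fold with control siRNA and 1.42-fold with Lap2 siRNA. Nolc1 had 1569, 1788 and 1780 before and 2060, 1910 and 2300 after serum in Lap2-depleted cells, which is 1.22-fold against 1.91-fold with control siRNA (interaction -0.64 ± 0.11, edgeR adjusted p = 5.1e-05). Dkc1 gave an interaction of -0.57 ± 0.11 (edgeR adjusted p = 0.00028), with a serum log2FC of -0.39 ± 0.08 in Lap2-depleted cells and 0.19 ± 0.08, which did not pass, with control siRNA. For Ubtf the interaction was 0.31 ± 0.08 (edgeR adjusted p = 0.0098). No difference passed for Polr1b (-0.13 ± 0.14), Tsr1 (-0.13 ± 0.11) or Ddx10 (0.08 ± 0.09).

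By role, the interaction was called below 0 for 2 of 5 RNA polymerase I genes, 2 of 3 box C/D genes, 1 of 4 box H/ACA genes, 3 of 5 multifunctional nucleolar genes, 3 of 13 small subunit processome and pre-40S genes and 3 of 12 pre-60S genes. In the PeBoW complex of pre-60S assembly Bop1 was called (-0.51), and Pes1 (-0.06) and Wdr12 (-0.30) were not.

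A further 113 genes of the pathway, listed with earlier results of these data known, were compared with the 42. With Lap2 siRNA in 0.3% FBS 71 were higher (62.8%) and 4 lower (3.54%), with a median log2FC of 0.32. Over all genes tested these shares were 17.8% and 18.6%. In 15% FBS 56 were higher (49.6%) and 4 lower (3.54%), with a median of 0.22, beside 11.4% and 12.1% of all genes tested. The number lower in 0.3% FBS was 2 without replicate 2 or 3 of the serum-starved control cells or replicate 1 of the serum-starved Lap2-depleted cells. The number higher in 15% FBS was 31 without replicate 3 of the serum-stimulated Lap2-depleted cells and 37 without replicate 1 of the serum-stimulated control cells. Mdn1, the large AAA ATPase of pre-60S maturation, had a log2FC of 0.96 ± 0.09 in 0.3% FBS, and the nucleolar protein gene Ccdc86 had 0.90 ± 0.09. Lower in the same cells were Nop53 (-0.48 ± 0.06) and Nsa2 (-0.37 ± 0.07), both of pre-60S assembly. In 15% FBS the helicase gene Ddx51 (0.59 ± 0.08) and the processome gene Utp14a (0.53 ± 0.08) were highest, and Naf1, an assembly factor of box H/ACA snoRNPs (-0.40 ± 0.10), and Tex10 (-0.38 ± 0.08) lowest.

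After serum, 45 of these 113 genes were higher (39.8%) and 11 lower (9.73%) in control cells, with a median of 0.12. Over all genes tested 15.6% were higher and 13.9% lower. Under total-count scaling, however, 22 of the 113 were higher and 37 lower. In Lap2-depleted cells 38 were higher (33.6%) and 18 lower (15.9%), with a median of 0.03, beside 18.3% and 14.9% of all genes tested. Under total-count scaling 15 of the 113 were higher and 55 lower. Without replicate 1 of the serum-stimulated control cells 7 were lower with control siRNA. The nucleolar methyltransferase gene Rrp8 had a serum log2FC of 1.40 ± 0.08 with control siRNA and 0.91 ± 0.08 with Lap2 siRNA, and Gtpbp4, a GTPase of pre-60S particles, had 1.16 ± 0.08 with control siRNA. Zfp593 led with Lap2 siRNA at 1.34 ± 0.10. Taf1c, a subunit of the SL1 factor that brings RNA polymerase I to rDNA, was lower after serum with both (-1.08 ± 0.12 and -1.20 ± 0.12), as was Utp23 (-0.62 ± 0.13 and -0.94 ± 0.14). The interaction was called for 2 genes above 0 (1.77%), Nop53 and Nsa2, and for 16 below (14.2%), beside 7.09% and 6.51% of all genes tested. The largest in size was that of Mdn1 at -0.75 ± 0.12. The number above 0 was 1 without replicate 3 of the serum-starved control cells, and the number below 0 was 10 without replicate 1 or 2 of the serum-stimulated Lap2-depleted cells.

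The 79 cytosolic ribosomal protein genes, the structural partners of the rRNA, were considered as a separate list. With Lap2 siRNA 3 were higher and 21 lower in 0.3% FBS (median log2FC -0.14), and 4 were higher and 1 lower in 15% FBS (0.05). After serum 1 passed the test in control cells (higher, list median -0.10) and 10 in Lap2-depleted cells (all higher, 0.09). These higher calls were 1.27% and 12.7% of the list, beside 15.6% and 18.3% of all genes tested. Under total-count scaling 76 and 9 of the 79 genes were lower. Their level in replicate 1 of the serum-starved Lap2-depleted cells, a mean log2 CPM of 9.48, stood apart from 9.05 and 9.11 in replicates 2 and 3. Without that library 71 were lower with Lap2 siRNA in 0.3% FBS, 12 were higher and 2 lower in 15% FBS, 72 were higher after serum with Lap2 siRNA and 20 were lower after serum with control siRNA. The interaction, called above 0 for 5 of them (6.33%, beside 7.09% of all genes tested), was then called for 72. Most of these counts also moved by over 1.5 times without other single libraries, down to 8 lower in 0.3% FBS, 1 higher in 15% FBS, 1 higher after serum with Lap2 siRNA, 0 higher with control siRNA and 0 interactions above 0. That library did not stand apart for the 42 genes, where its mean of 5.97 was beside 5.99 and 6.01. Many ribosomal protein genes, and Nsa2 and Gtpbp4 of the pathway genes, have annotated pseudogenes, and processed pseudogenes of Npm1 are known as well. What part reads of such copies had in these counts was not tested.

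**Figure D5:**
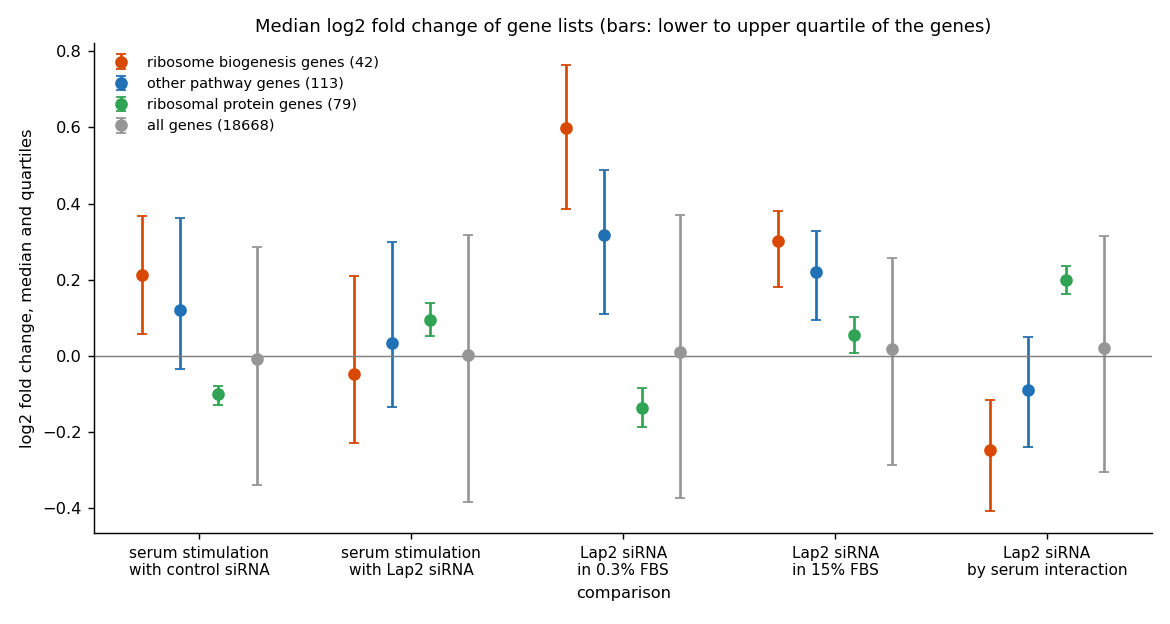
Median log2 fold change of the 42 genes, the 113 other genes of the pathway, the 79 ribosomal protein genes and all 18668 genes tested in each comparison, with bars from the lower to the upper quartile of the genes. The 42 genes have their highest median, 0.60, with Lap2 siRNA in 0.3% FBS and their lowest, -0.25, in the interaction; the serum medians shift with the scaling and become 0.01 and -0.28 under total counts.

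Promoter sequence was examined for description only, and not as an account of the changes above. RefSeq windows on GRCm38.p6, from 250 bases before to 50 bases after each gene's start, matched 38 of the 43 genes. The word CACGTG, the E-box that Myc and related factors are known to bind, stood in 9 of these 38 (23.7%), and in 8.09% of the 27025 genes with a window. CCGGAA (either strand), the core bound by ETS factors, stood in 18 (47.4%) beside 16.7% of all genes. TATAAA stood in 2 (5.26%) beside 15.7%, and the CArG box that SRF binds in 0 of 38 beside 1.81%. Such matches describe the sequence only, since binding was not measured here. The 250 bases before the start are shown, with CACGTG in capitals, for Nop2 (chr6:125131633-125131882, plus strand) and Rrn3 (chr16:13780449-13780698, plus strand). Both are among the genes chosen by size of change. Tsr1, also among them, holds the word in its window but not in these bases, and Pno1, which also holds it in its window, is not shown.
Nop2: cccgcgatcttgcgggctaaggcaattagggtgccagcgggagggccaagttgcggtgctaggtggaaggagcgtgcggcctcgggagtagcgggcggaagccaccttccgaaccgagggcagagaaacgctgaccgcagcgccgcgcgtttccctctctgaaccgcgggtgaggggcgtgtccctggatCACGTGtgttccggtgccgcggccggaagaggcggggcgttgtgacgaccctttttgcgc
Rrn3: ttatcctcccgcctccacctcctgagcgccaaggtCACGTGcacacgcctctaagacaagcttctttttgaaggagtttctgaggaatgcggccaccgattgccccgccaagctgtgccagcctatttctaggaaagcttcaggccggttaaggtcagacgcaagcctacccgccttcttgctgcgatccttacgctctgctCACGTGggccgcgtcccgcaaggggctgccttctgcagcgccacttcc
The word begins 60 bases before the RefSeq start of Nop2, and 215 and 48 bases before that of Rrn3. The RefSeq start is the base after each printed window, and for Nop2 it lies upstream of the gene start given above.

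Some counts could hold reads of other genes, as the strand setting of the counting was not given in the sources used here. Tsr1 shares 1240 exonic bases with Srr on the opposite strand, Bysl shares 361 with Ccnd3 and Heatr1 shares 155 with Lgals8. Small nucleolar RNA genes lie inside several of these genes, 5 in Nop56, 4 in Nop58 and 3 in Gnl3, and what part their reads had in the counts was not tested.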

How the data were processed

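Total RNA of 12 NIH 3T3 samples (3 for each of 4 groups) was extracted, depleted of rRNA and made into directional libraries sequenced on an Illumina instrument. According to the study's methods the authors aligned reads to mm10 with TopHat2 (Chipster, default settings), counted them per gene with HTSeq and deposited these raw counts, with no normalization, for 49671 Ensembl genes in each library. Tool versions, the annotation release and the strand setting were not given in the sources used here. The submitters' processing notes name DESeq2, and the methods name DESeq, for the study's own comparison.

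The counts were analysed in R 4.3.3 with edgeR 4.0.16 (TMM, glmQLFit, glmQLFTest; limma 3.58.1), with 1 mean per group over all 12 libraries, for 18668 genes (more than 1 read in 3 or more libraries). Contrasts took 15% against 0.3% FBS for either siRNA, Lap2 against control siRNA for either serum level, and the interaction. A count filter of this kind follows the study's cutoff. Total counts of 18026298 to 26265253 per library set the depth. Normalized counts are counts over TMM-scaled library sizes, brought to their mean, and log2 CPM has a prior count of 2. With 3 libraries against 3 an exact permutation test of a single value cannot go below a p of 0.1, so calls rest on the fit over all genes. Groups came from the siRNA and serum labels, and the stimulation time from the series description.

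The genes and lists were chosen with earlier results of these data known. Genes given library by library are Tmpo and, in each contrast, the 4 listed genes with the largest absolute log2FC among those called. For the other pathway genes the 2 largest in each direction are named. A few further values, for genes without a call and for Pno1 and Npm1, were added after their values were seen. Gene symbols were taken for 49326 of the identifiers, and 113 of the other pathway genes were found. The rows hold no line without a gene (0 of them), and 0 pairs of libraries were identical. Sequences and windows came from the RefSeq table of GRCm38.p6.

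Alternatives were total-count scaling, upper-quartile normalization, DESeq2 1.42.0, filterByExpr, no filter, a count above 1 in every library, a block for replicate number, fits restricted to the compared groups and each library left out. The fit was tested on simulated counts with 200 changed genes: for serum stimulation with control siRNA 87.5% of genes changed by a log2FC of 0.5 were called (18069 genes) and 100% of those changed by 1 (18141 genes). The changed genes had high mean counts, with equal numbers up and down. The simulation therefore does not test genes with few reads or the dependence of the serum results on scaling. The simulated serum change was the same with both siRNAs, so recovery of siRNA differences and of interactions was not tested either. At a log2FC of 0.5, 12 unchanged genes were called for serum with control siRNA and 9 with Lap2 siRNA. Tables and figures used Python 3.11.15, pandas 2.3.3, numpy 2.4.6 and matplotlib 3.10.9.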

Additional observations from a re-analysis of the deposited data

Results flagged for a closer look

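Each value here is an interaction, the log2FC of serum in Lap2-depleted cells minus that in control cells. These are the named genes for which the Lap2 siRNA effect differed between 0.3% and 15% FBS at an adjusted p under 0.05 in edgeR. In RNA polymerase I transcription these were Polr1a (-0.43), Rrn3 (-0.30) and Ubtf (0.31). Among snoRNP proteins they were Nop56 (-0.42), Nop58 (-0.30) and the pseudouridine synthase Dkc1 (-0.57). Nolc1 (-0.64), Mybbp1a (-0.27) and Ddx21 (-0.70) were the multifunctional nucleolar proteins. Rrp12 (-0.85), Utp20 (-0.53) and Heatr1 (-0.52) belong to the small subunit processome and pre-40S group, and Nop2 (-0.48), Bop1 (-0.51) and Gnl3 (-0.54) to pre-60S assembly.

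Of the other pathway genes, Nop53 (0.44) and Nsa2 (0.37) lay above 0, and Mdn1 (-0.75) and Urb1 (-0.55) below. Tmpo, the siRNA's target, had -0.79, and Myc had -0.81. Tmpo was 0.384-fold of control with Lap2 siRNA in 0.3% FBS and 0.222-fold in 15% FBS, so its depletion was not equal in the serum conditions whose siRNA effects are compared, and the part of this in the values above was not tested.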

How the results depend on the processing

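Counts and medians over the 42 genes kept their direction and stayed within 1.5 times under DESeq2, the other filters, the fits of only the groups compared and the replicate block. Total-count scaling moved the median of all genes by -0.21 and -0.23 for serum with control and Lap2 siRNA and by 0.11 in 0.3% FBS, and upper-quartile normalization moved the serum medians by -0.10 and -0.11. With total counts, serum with control siRNA gave 9 higher and 8 lower genes (median log2FC 0.0051) and with Lap2 siRNA 3 and 25 (-0.28), Lap2 siRNA had medians of 0.71 in 0.3% FBS and 0.39 in 15% FBS, and 0 genes were lower in 15% FBS. By upper quartile, serum with control siRNA gave 7 lower genes (median 0.12) and with Lap2 siRNA 5 higher (-0.16). The split of all genes, higher against lower, went with total counts from 2915 and 2597 to 1632 and 5847, from 3420 and 2777 to 1658 and 5951, from 3330 and 3480 to 4692 and 2638, and from 2125 and 2250 to 3471 and 1678 for serum with control and Lap2 siRNA and Lap2 siRNA in 0.3% and 15% FBS. By upper quartile the serum splits were 2183 and 3878, and 2383 and 3942.

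Signs turned with total counts for serum with control siRNA in Ubtf (-0.079), Dkc1 (-0.020), Ddx10 (-0.11) and Tmpo (-0.036), for serum with Lap2 siRNA in Ddx10 (-0.058) and Gnl3 (-0.0079), for Lap2 siRNA in 0.3% FBS in Polr1c (0.073) and Nop16 (0.11), and in 15% FBS in Ubtf (0.044) and Myc (0.017). Nop16 also turned by upper quartile (0.013) and DESeq2 (0.011). The cause was not tested.

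With single libraries left out, serum with control siRNA raised 18 to 27 genes and lowered 1 to 2. Serum with Lap2 siRNA raised 6 to 12 and lowered 4 to 14 with a median of -0.090 to 0.0038. Lap2 siRNA in 15% FBS had 21 to 29 higher genes, 0 to 1 lower genes and a median of 0.24 to 0.33. The interaction had 11 to 19 genes called below 0 and a median of -0.31 to -0.18. It had 1 to 2 genes called above 0, 2 without replicate 1 of the serum-starved Lap2-depleted cells. Values without a call spanned 0 in 0.3% FBS for Polr1c (-0.068 to 0.013), Npm1 (-0.044 to 0.11) and Nop16 (-0.030 to 0.057), and in 15% FBS for Dkc1 (-0.037 to 0.084).

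The titles number all 12 libraries in a single run, and replicates 1 to 3 are their order within each group. The labels do not say whether libraries at the same place share anything. Deviations from the group means correlated at -0.12 to 0.10 over the 18 same-numbered pairs (0 above 0.1) and at -0.21 to 0.22 over the 36 others, so the numbers were not taken as pairs. With the replicate block, 20 genes were higher and 2 lower after serum with control siRNA, and 15 interactions were called below 0, and no count over the 42 genes moved by over 1.5 times. Each of the 42 genes had 160 or more reads in every library, and the effect of depth on their calls was not tested.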
